A study of Mus musculus with 12 samples.

Results

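The genes followed here across sorted mouse CD4 T cells belong to the cytotoxic programme of lymphocytes. They are the transcription factor genes Runx3, Tbx21 and Eomes, and Nkg7, Gzma, Gzmb, Prf1, Ctla2a, Ctla2b and Ctsw. The array held 14 probe sets annotated to these 10 genes, of 45101 in all, and all 14 are described whatever their values. Of them, 13 carried 1 gene symbol and 1 carried both Ctla2a and Ctla2b. A probe set was tested if it reached log2 5 on at least 2 of the 12 arrays, which 13 of the 14 did. The exception was one of the Runx3 probe sets.

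RUNX3 and T-bet, the product of Tbx21, are transcription factors that work together in T helper 1 (Th1) cells and in CD8 T cells, where T-bet and its relative Eomesodermin also drive the killing programme. Killer lymphocytes store perforin (Prf1), which opens pores in membranes, and granzymes (Gzma, Gzmb), serine proteases that act in the target cell, in secretory granules whose membrane carries NKG7. Follicular helper T (Tfh) cells instead give help to B cells in germinal centres and depend on the repressor BCL6.

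The cells came from heterozygous S1pr2V/+ mice, in which the fluorescent protein Venus reports S1pr2, a receptor gene of germinal centre cells. Lymph node cells were sorted 10 days after subcutaneous CGG in CFA (a protein antigen in an oil adjuvant with mycobacteria). Venus-high Tfh cells (3 arrays) and Venus-low Tfh cells (3 arrays) were CXCR5+, PD1-high and CD44-high, and differed in Venus. The PD1-intermediate Th cells (2 arrays) were CXCR5+ and CD44-high with intermediate PD1, and the PD1-low Th cells (2 arrays) were CD44-high with low CXCR5 and low PD1. Naive CD4 T cells (2 arrays) were CD44-low and CD62L-high and came from spleen rather than lymph node. Their sample labels call the donors immunized, while the series text also speaks of control mice without saying which samples came from them. Each array held RNA pooled from 2 to 6 mice, all carrying the reporter allele, so a single mouse was not measured. No label says whether pools of different groups came from the same mice, and the p-values measure the spread between these arrays. S1pr2 itself lay at log2 12.58 to 13.09 on the Venus-high arrays, against 9.86 to 10.68 on the Venus-low arrays.

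The arrays fell into 3 sets by their overall distribution of values, which no label names. Set 1 held the first Venus-high, Venus-low and naive arrays. Set 2 held the second Venus-high and Venus-low arrays, PD1-low array 1 and naive array 2. Set 3 held the third Venus-high and Venus-low arrays, both PD1-intermediate arrays and PD1-low array 2. The third quartile of the log2 values was 8.50 to 8.55, 8.68 to 8.76 and 9.38 to 9.41 in sets 1, 2 and 3. In set 2, 3289 tested probe sets were displaced by more than 3 log2 units in 1 direction from both other sets, among them 1 member, a Prf1 probe set. The median of 12 hybridization control probe sets was 2.33 in set 2, against 14.88 in set 1 and 14.89 in set 3. Arrays of 1 group lay a median of 0.67 to 0.96 log2 units apart for probe sets above log2 5, except the PD1-intermediate pair, which share a set, at 0.09. On that pair 3.93% of all probe sets had exactly equal values, against 0.0% in every other pair within a group. Results are therefore given without and with a term for the array set.

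The 6 measured CD4 T cell markers (Cd3d, Cd3e, Cd3g, Cd4, Cd5 and Cd28) exceeded log2 5 on every array. Of 6 measured genes of a 7-gene list for NK and innate-like lymphocytes, Ncr1, Klrk1, Fcer1g and Tyrobp stayed below log2 5 on all 12 arrays. The other 2 were Klrd1 and Klrc1, genes of killer lectin-like receptors. Klrc1 read 2.66 to 3.77 on Venus-high arrays, 4.06 to 7.73 on Venus-low, 6.31 to 6.72 on PD1-intermediate, 2.47 to 2.58 on PD1-low and 2.51 to 2.59 on naive arrays. Klrd1 read 1.99 to 2.74 on Venus-high arrays, 3.66 to 5.93 on Venus-low, 7.56 to 8.94 on PD1-intermediate, 10.80 to 11.50 on PD1-low and 9.45 to 9.73 on naive arrays. The log2 of the summed NK markers was 4.96 to 5.39, 5.65 to 8.21, 8.30 to 9.21, 10.83 to 11.51 and 9.50 to 9.80 in the same order of groups. Cd8a was below log2 5 on every array, while Cd8b1 read 2.51 to 3.13 on Venus-high arrays and 6.35 and 6.62 on PD1-low arrays. The log2 sum of these 2 CD8 genes was 3.41 to 3.76 in Venus-high, 3.44 to 4.41 in Venus-low, 4.90 to 4.99 in PD1-intermediate, 6.43 to 6.72 in PD1-low and 3.75 to 5.35 in naive cells. All 6 myeloid and plasmacytoid and all 4 mast cell and basophil markers stayed below log2 5, as did 2 of 3 measured B cell genes, Cd79a and Ms4a1. The third, Pax5, was near log2 2 on 8 arrays and read 5.67, 5.96, 5.68 and 5.69 on the Venus-high, Venus-low, PD1-low and naive arrays of set 2. The log2 sum of these 3 was 3.90 to 5.94, 3.88 to 6.19, 3.87 to 4.28, 3.75 to 5.99 and 4.00 to 5.97 in the same order of groups. These levels move with several members described below, and their part in those results was not tested.

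On its tested probe set, Runx3 was lower on every Venus-high Tfh array than on any other array. Its signal was near log2 5 in these cells and near log2 10 or above in all others, naive cells included. Probe set 1440275_at read 4.64, 4.88 and 4.63 on the Venus-high arrays, against 9.59, 10.00 and 10.73 on the Venus-low arrays. It read 10.93 and 10.78 in PD1-intermediate cells, 10.21 and 10.95 in PD1-low cells, and 10.92 and 10.66 in naive cells. The Venus-high arrays lay below all 9 others with no overlap in any set, whereas the other groups overlapped their neighbours in the order of means. The difference between Venus-high and Venus-low Tfh cells was -5.39 ± 0.33 log2 units (SE, 3 arrays each), with a Benjamini-Hochberg adjusted p in limma of 0.003. Because the Venus-high arrays were under log2 5, taken here as a floor, this is given as at least 34.5-fold lower. Within sets 1, 2 and 3 the difference was -4.95, -5.12 and -6.10. Against PD1-low cells it was -5.86 ± 0.37 (adjusted p = 6.41e-05, at least 47.8-fold lower), and against naive cells -6.07 ± 0.37 (adjusted p = 4.66e-05, at least 55.4-fold lower). In a pool of sorted cells, fewer cells that express a gene and less of its RNA per cell cannot be told apart.

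The call against Venus-low cells was lost when only those 6 arrays were fitted (adjusted p = 0.192) and when set 2 was left out (0.219), with the difference at -5.39 and -5.53. The other Runx3 probe set, 1421467_at, lay between 2.03 and 2.10 on all 12 arrays and was not tested, so the 2 probe sets of this gene disagree, and the result rests on 1 of them.

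**Figure D1:**
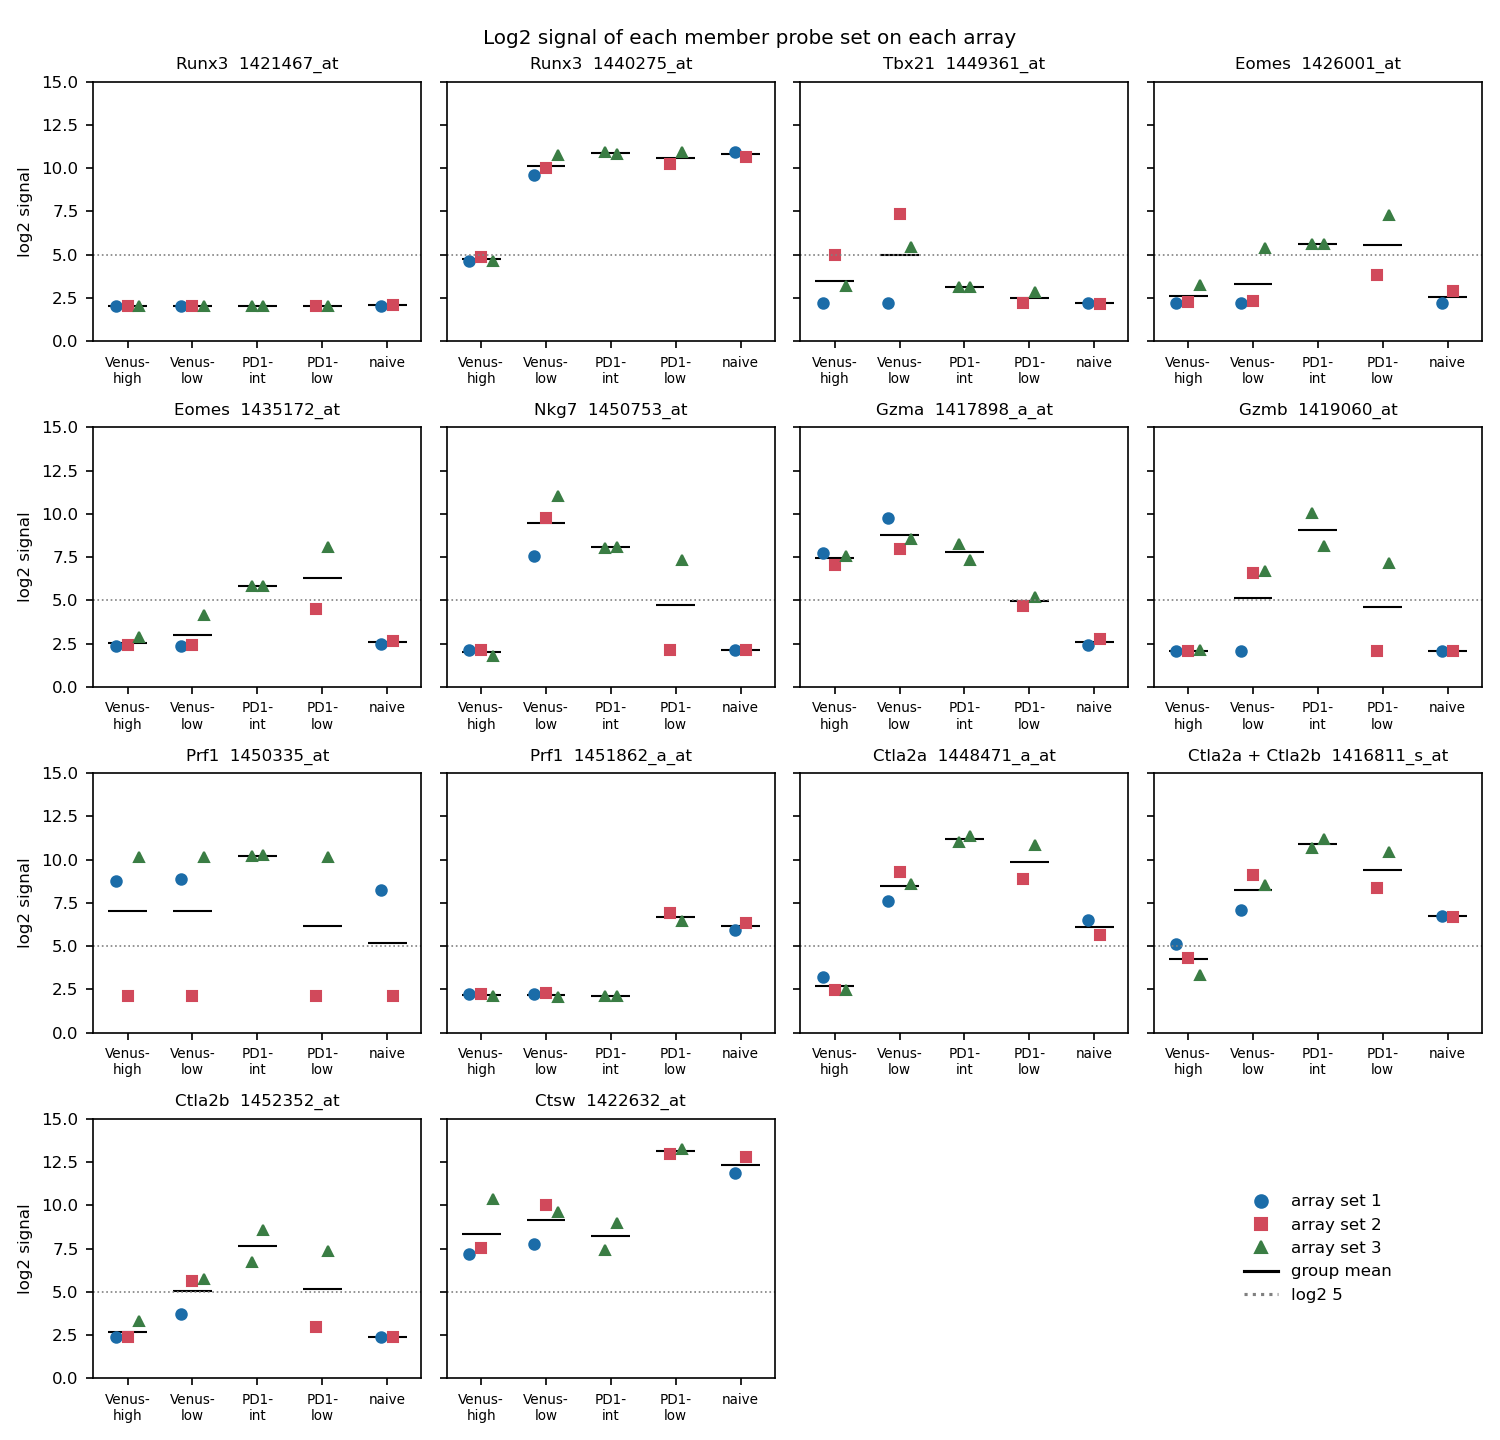
Log2 signal (vertical axis) of each of the 14 member probe sets on each of the 12 arrays, by sorted group, with colour and shape for the array set, bars for group means and a dotted line at log2 5. Runx3 1440275_at, Nkg7 and the Ctla2 probe sets are low in Venus-high Tfh cells and higher in Venus-low Tfh cells, while Prf1 1450335_at follows the array set.

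Tbx21 exceeded log2 5 on 2 arrays, both of Venus-low Tfh cells. Probe set 1449361_at read 2.18, 4.98 and 3.20 on the Venus-high arrays, against 2.21, 7.32 and 5.41 on the Venus-low arrays. It stayed at or below 3.13 on the PD1-intermediate, PD1-low and naive arrays. It therefore passed the filter through the Venus-low group alone, and the groups overlapped. The difference between Venus-high and Venus-low cells is therefore given as a description. It was -1.53 ± 1.20, and within sets 1, 2 and 3 it was -0.03, -2.34 and -2.21. Tbx21 stays among the tested probe sets counted below, and no comparison called it, with or without the set term.

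Eomes exceeded log2 5 on both PD1-intermediate arrays and 1 PD1-low array with both of its probe sets, and on 1 Venus-low array with one of them. All of these arrays belong to set 3, which holds every PD1-intermediate array and no naive array. Group and array set are therefore not fully separated for Eomes. The 2 Eomes probe sets varied together across arrays (r = 0.96). Probe set 1435172_at read 2.36, 2.40 and 2.86 in Venus-high and 2.37, 2.43 and 4.16 in Venus-low cells. PD1-intermediate arrays were both at 5.85, PD1-low arrays at 4.52 and 8.09, and naive arrays at 2.49 and 2.67. The PD1-low arrays, which come from different sets, thus differed by more than 3 log2 units. Against PD1-low cells the Venus-high difference of -3.76 ± 0.95 missed the threshold (adjusted p = 0.058 in limma) and passed it with the set term (-3.52 ± 0.60, adjusted p = 0.006) and without PD1-low array 1 (0.007). The second probe set, 1426001_at, read 2.21, 2.26 and 3.27 in Venus-high and 2.22, 2.32 and 5.37 in Venus-low cells. It was at 5.60 on both PD1-intermediate arrays, at 3.84 and 7.30 in PD1-low cells, and at 2.22 and 2.89 in naive cells, so 1 Venus-low array lay above 1 PD1-low array. Its difference, -2.99 ± 1.17, had an adjusted p of 0.253 in limma without the set term and 0.018 with it.

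Nkg7, which encodes the granule membrane protein, was below log2 5 on every Venus-high array and above log2 7 on every Venus-low array. Probe set 1450753_at read 2.12, 2.13 and 1.80 on the Venus-high arrays, against 7.57, 9.76 and 11.02 on the Venus-low arrays. PD1-intermediate cells were at 8.02 and 8.11, PD1-low cells at 2.13 and 7.35, and naive cells at 2.14 and 2.13. Venus-high and naive arrays were thus all near log2 2, the PD1-low arrays split by set, and the Venus-low arrays overlapped the PD1-intermediate ones. The Venus-high minus Venus-low difference was -7.43 ± 1.27, and -5.44, -7.63 and -9.23 within sets 1, 2 and 3. It missed the threshold in limma across all probe sets (adjusted p = 0.065). It passed with the set term (adjusted p = 0.010) and with the replicate number as a block on the 6 Tfh arrays (adjusted p = 0.047). Replicate number and array set coincide on the Tfh arrays, so these 2 results are not separate support. The block was also chosen after seeing the data. On the measured levels Nkg7 was at least 21.8-fold lower in Venus-high cells.

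Granzyme genes took different courses from each other. Gzma, the gene of a tryptase-like granzyme, was present in Venus-high Tfh cells and rose there against PD1-low and naive cells, opposite in direction to Runx3 and Ctla2a in the same comparisons. Probe set 1417898_a_at read 7.72, 7.06 and 7.58 in Venus-high cells and 9.77, 7.95 and 8.56 in Venus-low cells. It read 8.24 and 7.32 in PD1-intermediate cells, 4.69 and 5.19 in PD1-low cells, and 2.43 and 2.76 in naive cells. All arrays of the 3 CXCR5+ groups exceeded those of the other 2 groups. The Venus-high minus naive difference was 4.86 ± 0.54 (adjusted p = 8.93e-04 in limma, at least 5.48-fold higher). Against PD1-low cells it was 2.52 ± 0.54 (adjusted p = 0.029), and this call was lost whenever any 1 array of either group was left out (adjusted p 0.057 to 0.205). PD1-intermediate minus PD1-low was 2.84 ± 0.59, which missed the threshold (adjusted p = 0.056 in limma) and passed with the set term (0.034). Between the Tfh groups the difference was -1.31 ± 0.48, with every Venus-high array below every Venus-low array but an adjusted p of 0.592, or 0.107 with the set term.

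Gzmb, the gene of the granzyme that cleaves after aspartate and triggers caspases, was at the bottom of the scale in Venus-high cells. Probe set 1419060_at read 2.05, 2.06 and 2.11 there, against 2.06, 6.59 and 6.67 in Venus-low cells. It was highest in PD1-intermediate cells at 10.05 and 8.13, and read 2.06 and 7.18 in PD1-low and 2.06 and 2.07 in naive cells. One Venus-low array and 1 PD1-low array were thus as low as the Venus-high arrays. Klrc1, given above, likewise exceeded log2 5 on Venus-low arrays 2 and 3 and on both PD1-intermediate arrays, and its part in the Gzmb and Nkg7 values was not tested. The Venus-high minus Venus-low difference was -3.03 ± 1.53 (adjusted p = 0.988 in limma), and PD1-intermediate minus PD1-low was 4.47 ± 1.88 (adjusted p = 0.559).

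Prf1, the perforin gene, gave 2 patterns that do not agree. Probe set 1451862_a_at was near log2 2 on all 8 arrays of the CXCR5+ groups and reached 6.89 and 6.42 in PD1-low cells and 5.93 and 6.35 in naive cells. Its difference was -4.46 ± 0.24 for Venus-high minus PD1-low (adjusted p = 3.08e-05 in limma, at least 3.15-fold lower). It was -3.95 ± 0.24 for Venus-high minus naive (adjusted p = 4.66e-05, at least 2.21-fold lower). PD1-intermediate minus PD1-low was -4.57 ± 0.26 (adjusted p = 9.31e-05, at least 3.15-fold lower). Probe set 1450335_at read 8.73, 2.13 and 10.14 in Venus-high cells, 8.88, 2.14 and 10.12 in Venus-low cells, 10.21 and 10.24 in PD1-intermediate cells, 2.14 and 10.15 in PD1-low cells, and 8.25 and 2.14 in naive cells. Its low arrays were exactly the 4 of set 2, and within sets no comparison differed by more than 0.48 log2 units. A level of Prf1 common to both probe sets cannot be given from these values.

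Ctla2a and Ctla2b are neighbouring genes whose products resemble the propeptide of cysteine cathepsins, and the Ctla2a protein inhibits cathepsin L. Ctla2a fell in Venus-high Tfh cells against each of the 3 groups it was tested with. Probe set 1448471_a_at read 3.21, 2.45 and 2.49 in Venus-high cells, against 7.60, 9.27 and 8.58 in Venus-low cells. PD1-intermediate cells were at 10.98 and 11.37, PD1-low cells at 8.86 and 10.83, and naive cells at 6.53 and 5.62. Every Venus-high array lay below the other 9. The difference from Venus-low cells was -5.77 ± 0.61 (adjusted p = 0.009 in limma, at least 11.2-fold lower), from PD1-low cells -7.13 ± 0.68 (adjusted p = 5.02e-04, at least 28.7-fold lower), and from naive cells -3.36 ± 0.68 (adjusted p = 0.018, at least 2.11-fold lower). Leaving out Venus-low array 2 ended the first call (adjusted p = 0.056), and leaving out Venus-high array 2 or 3 or either naive array ended the call against naive cells (0.058 to 0.148). A floor at log2 5 left -1.08 against naive cells (0.545). Venus-low minus PD1-intermediate was -2.69 ± 0.68 with an adjusted p of 0.299, and PD1-low minus naive was 3.77 ± 0.74 with an adjusted p of 0.309.

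The probe set shared by both genes, 1416811_s_at, followed Ctla2a closely (r = 0.98). It read 5.11, 4.34 and 3.34 in Venus-high cells, 7.06, 9.12 and 8.50 in Venus-low cells, 10.65 and 11.18 in PD1-intermediate cells, 8.37 and 10.46 in PD1-low cells, and 6.75 and 6.68 in naive cells. It fell by 5.15 ± 0.81 in Venus-high against PD1-low cells (adjusted p = 0.007 in limma), a call lost without PD1-low array 2 (0.055). Against Venus-low cells its difference of -3.97 ± 0.72 passed only with the set term (adjusted p 0.076 without it and 0.028 with it). The Ctla2b probe set, 1452352_at, read 2.37, 2.37 and 3.30 in Venus-high, 3.73, 5.61 and 5.77 in Venus-low, 6.73 and 8.58 in PD1-intermediate, 2.94 and 7.36 in PD1-low, and 2.41 and 2.39 in naive cells. Its Venus-high minus Venus-low difference was -2.35 ± 1.10 (adjusted p = 0.878), with Venus-low array 1 below log2 5 like the Venus-high arrays. Signals of such similar genes can cross between probe sets, so the share of each is uncertain.

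The promoters of the pair show how alike they are. Aligned over 236 columns upstream of their RefSeq starts (GRCm38.p6, minus strand), chr13:60936626-60936875 for Ctla2a and chr13:60897448-60897697 for Ctla2b, they were identical at 208 (88.1%), with 20 mismatches and 8 gap columns. Capitals mark bases that differ or have no partner, and neither holds the RUNX motif letters searched below.
Ctla2a: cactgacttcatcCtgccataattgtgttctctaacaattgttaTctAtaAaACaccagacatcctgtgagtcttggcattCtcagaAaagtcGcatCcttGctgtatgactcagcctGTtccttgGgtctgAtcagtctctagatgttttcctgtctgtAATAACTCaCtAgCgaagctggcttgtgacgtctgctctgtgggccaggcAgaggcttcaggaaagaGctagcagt
Ctla2b: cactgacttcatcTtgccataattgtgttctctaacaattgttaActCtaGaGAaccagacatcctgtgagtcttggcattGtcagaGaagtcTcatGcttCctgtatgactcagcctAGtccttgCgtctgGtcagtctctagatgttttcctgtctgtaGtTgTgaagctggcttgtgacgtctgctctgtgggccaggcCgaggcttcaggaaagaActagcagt

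Ctsw encodes cathepsin W, a cysteine protease of killer lymphocytes, and was above log2 7 on every array. Probe set 1422632_at read 7.16, 7.52 and 10.34 in Venus-high cells and 7.78, 9.99 and 9.63 in Venus-low cells. It read 7.44 and 8.97 in PD1-intermediate cells, against 12.94 and 13.28 in PD1-low and 11.87 and 12.79 in naive cells. The 3 CXCR5+ groups overlapped one another, and all their arrays lay below the PD1-low and naive arrays. Venus-high minus PD1-low was -4.77 ± 1.04 (adjusted p = 0.032 in limma), a call lost without Venus-high array 1 or 2 or either PD1-low array (0.092 to 0.180). Venus-high minus naive was -3.99 ± 1.04 (adjusted p = 0.058) and PD1-intermediate minus PD1-low -4.91 ± 1.14 (adjusted p = 0.092). Both passed with the set term, at 0.004 and 0.013, and the first also without Venus-high array 3 (0.012). Klrd1 and Cd8b1, given above, were likewise higher in PD1-low than in Venus-high cells, and their part in the Ctsw and Prf1 values was not tested. Cd8a and Ncr1 stayed below log2 5 on the same arrays.

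Counted over the 13 tested probe sets, 2 were called in Venus-high against Venus-low Tfh cells in limma, beside 0.418% of all 22024 tested probe sets. Both fell, beside 0.259% of all that fell. With the set term 4 fell (Runx3, Nkg7, Ctla2a and the shared Ctla2 probe set), beside 8.98% called in either direction and 5.21% lower. With signals under log2 5 set to that value, every Venus-high array lay below every Venus-low array in 5 of the 13, beside 3.52% of all probe sets. Venus-high against PD1-low cells gave 6 calls, beside 6.1% of all probe sets. Of these 5 were lower, beside 2.67%, and 1 was higher, beside 3.44%. With the set term 8 were called there, beside 24.2%, with 7 lower (11.7% of all) and 1 higher (12.5% of all). The 7 were Runx3, both Eomes probe sets, Prf1 1451862_a_at, Ctla2a, the shared Ctla2 probe set and Ctsw. Eomes and Ctla2a were thus each read by more than 1 of these probe sets. Venus-high against naive cells gave 4 calls, beside 7.77%, with 3 lower (2.33% of all) and 1 higher (5.44% of all). The set term gave 5, beside 29%, with 4 lower (15.2% of all) and 1 higher (13.8% of all). The higher one was Gzma in both comparisons, which share the Venus-high arrays.

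PD1-intermediate against PD1-low cells gave 1 call, beside 1.99%, which was Prf1 1451862_a_at, and it was lower, beside 0.499%. With the set term Prf1, Ctsw and Gzma were called there, 3 beside 7.24%. Venus-low against PD1-intermediate cells gave 0 calls in limma, beside 0.182%, with 4 members at an unadjusted p under 0.05, beside 7.43% of all. PD1-low against naive cells gave 0 in limma, beside 0.0318%, with 5 members at an unadjusted p under 0.05, beside 3.44% of all, and Gzma differed there by 2.34 ± 0.59 (adjusted p = 0.644). The set term also called 0 in these last 2 comparisons, beside 1.9% and 0.25%.

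**Figure D2:**
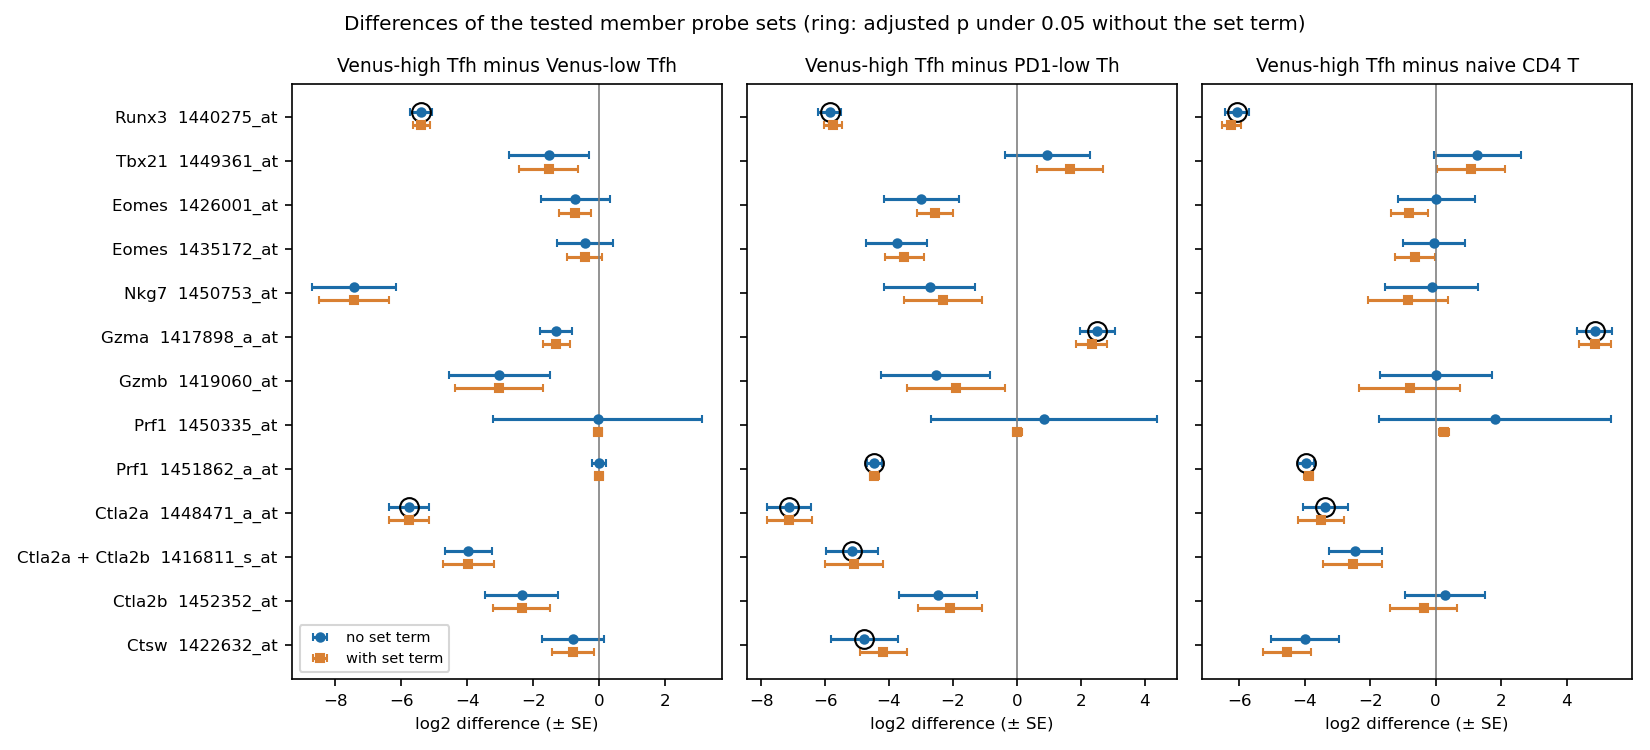
Log2 differences with standard errors (horizontal axis) of the 13 tested member probe sets for Venus-high Tfh minus Venus-low Tfh, minus PD1-low Th and minus naive CD4 T, without and with a term for the array set. Rings mark an adjusted p under 0.05 without the set term, as for Runx3 in all 3 panels and for Gzma, to the right of 0, against PD1-low and naive cells.

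Because RUNX3 binds TGTGGT, the 250 bases upstream of each member's RefSeq starts (GRCm38.p6) were searched for it on both strands (TGTGGT and ACCACA), and for the T-box letters GGTGTGA and TCACACC. The first motif is in 14% and the second in 3.33% of all 32851 such promoters. The promoters below are those of Runx3 itself at the more upstream of 2 starts, of Nkg7, and of both granzymes, which differed. Nkg7 was also low in Venus-high cells but, unlike Runx3, in naive cells too. Capitals mark the RUNX letters. Runx3 (chr4:135120395-135120644, plus strand) holds 2 matches, Nkg7 (chr7:43436888-43437137, plus) 1 together with 1 T-box match, Gzmb (chr14:56262335-56262584, minus) 2 and Gzma (chr13:113100982-113101231, minus) 1.
Runx3: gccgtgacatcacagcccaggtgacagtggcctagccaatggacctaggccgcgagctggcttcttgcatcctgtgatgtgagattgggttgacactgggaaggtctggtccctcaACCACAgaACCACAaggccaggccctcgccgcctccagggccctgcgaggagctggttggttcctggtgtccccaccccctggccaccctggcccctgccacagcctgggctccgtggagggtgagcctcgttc
Nkg7: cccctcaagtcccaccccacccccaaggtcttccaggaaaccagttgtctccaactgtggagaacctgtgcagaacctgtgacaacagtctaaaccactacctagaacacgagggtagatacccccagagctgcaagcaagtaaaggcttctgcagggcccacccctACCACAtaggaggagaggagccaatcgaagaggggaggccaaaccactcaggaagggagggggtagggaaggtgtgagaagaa
Gzmb: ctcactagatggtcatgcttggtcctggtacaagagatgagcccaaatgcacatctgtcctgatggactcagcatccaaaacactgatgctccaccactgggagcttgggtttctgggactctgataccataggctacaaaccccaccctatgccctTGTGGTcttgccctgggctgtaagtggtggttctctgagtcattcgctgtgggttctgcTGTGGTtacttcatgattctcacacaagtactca
Gzma: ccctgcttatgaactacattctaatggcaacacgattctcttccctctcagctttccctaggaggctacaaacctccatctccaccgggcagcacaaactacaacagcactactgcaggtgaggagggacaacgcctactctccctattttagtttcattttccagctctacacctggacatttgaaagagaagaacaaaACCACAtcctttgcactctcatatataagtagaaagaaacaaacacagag

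Matches thus occur in promoters of genes that were low in Venus-high cells and in that of Gzma, which was not. The Prf1 window holds 1 match, and the windows of Tbx21, Eomes, Ctla2a, Ctla2b and the second Runx3 start hold none. A match of letters is a description of the window and not a measured binding site.

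Members differed in how they varied together over the 12 arrays, which share the array sets and the signal scale. Ctla2a correlated with Runx3 at r = 0.86, Gzmb with Ctla2b at 0.92 and Gzmb with Nkg7 at 0.79. Prf1 1451862_a_at correlated with Ctsw at 0.88, while Gzma ran against both, at -0.88 and -0.78. Tbx21 had no r above 0.54 with any other member probe set.

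**Figure D3:**
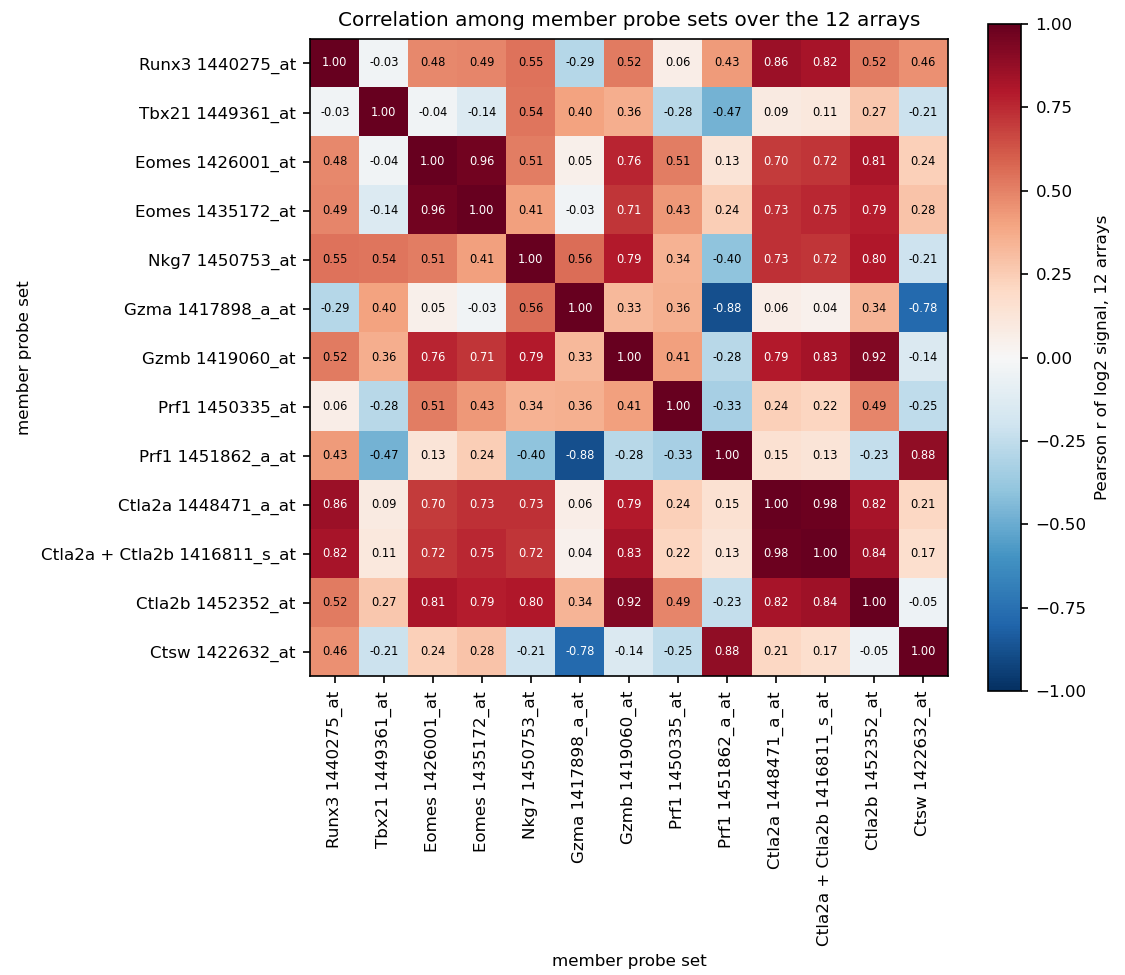
Pearson r of the log2 signal over the 12 arrays for each pair of the 13 tested member probe sets, from blue (negative) to red (positive). Runx3 and the 3 Ctla2 probe sets are positive with one another, and Gzma is negative with Prf1 1451862_a_at and Ctsw.

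Among 9891 other genes, the 5 with the pattern most like Runx3 were Pdlim1, Anxa6, Itgb7, Golm1 and Pole2, with r from 0.95 to 0.98. Pdlim1 averaged 8.86, 11.30, 12.06, 12.28 and 12.31 in Venus-high, Venus-low, PD1-intermediate, PD1-low and naive cells. For Ctla2a they were Capn2, Mapk11, Myl4, Dok2 and Gm2a (r 0.95 to 0.98), and for Gzma Cdca5, Mcm6, Nsd2, Ncapg and Scpep1 (0.96 to 0.97). Cdca5 averaged 9.77, 12.04, 9.83, 4.81 and 2.96 in the same order. Nkg7 was closest to Kpnb1, Ola1, Cdk4, Nme1 and Csrp2 (0.94 to 0.97), though the group means of Kpnb1 ran only from 13.70 to 13.95. Gzmb was closest to Myd88, Ctla2b, Mansc1, Ccr2 and Rftn1 (0.92 to 0.94), and Tbx21 to Fut7, Rom1, Ermn, AA467197 and Selenom (0.86 to 0.95). Only 2 arrays, both Venus-low, exceeded log2 5 for Tbx21, so its r values rest largely on signals under the floor.

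Of a list of 23 other Th1 regulators, receptors and effectors, 15 were tested, and none was called in limma between the Tfh groups (4 at an unadjusted p under 0.05, beside 6.38% of all probe sets), with a median difference of -0.40 against 0.04 over all probe sets. The set term called 3 lower there, beside 5.21% of all probe sets, and none higher, beside 3.77%. The 2 with the smallest p were receptor genes for interleukin 18. Il18rap read 3.38, 3.64 and 6.82 in Venus-high against 9.32, 10.04 and 10.10 in Venus-low cells (-5.21 ± 0.96, adjusted p = 0.078 in limma, 0.007 with the set term). Il18r1 differed by -3.45 ± 0.85 (0.217, and 0.049 with the set term). The third, Hopx, differed by -2.59 ± 1.58 (1, and 0.007 with the set term). Against PD1-low cells 3 rose in Venus-high cells, beside 3.44% of all probe sets, and none fell, beside 2.67%. With the set term 6 were higher, beside 12.5%, and 3 lower, beside 11.7%: Il18r1 (adjusted p = 0.043), Hopx (0.002) and Lta, a lymphotoxin gene (0.006). Ifng, the Th1 cytokine gene, read 7.43, 8.22 and 11.21 against 2.81 and 2.59 in PD1-low cells, at least 15.5-fold higher (adjusted p = 0.012). The chemokine receptor gene Cxcr6 and the transcription factor gene Bhlhe40 rose by 5.77 ± 1.04 and 4.66 ± 0.90 (0.013 and 0.019). The PD1-low arrays read 3.27 and 7.48 for Cxcr6, whose difference was 3.67 without PD1-low array 1 and 7.88 without array 2, and whose call was lost when only these groups were fitted (0.232). Against naive cells 5 rose, beside 5.44%, and none fell, beside 2.33%. Cxcr3, Bhlhe40, Cxcr6 and Ifng, all below log2 5 in naive cells, were at least 68.4-fold, 46.5-fold, 70.8-fold and 15.5-fold higher in Venus-high cells (adjusted p 8.85e-04 to 0.010). The set term made 6 higher, beside 13.8%, and 1 lower, beside 15.2%, which was Irf1, the gene of an interferon regulatory factor (-0.68, adjusted p = 0.016). Leaving out either PD1-low array ended the Ifng (0.080 and 0.082) and Bhlhe40 (0.160 and 0.053) calls against PD1-low cells, and leaving out either naive array ended the Ifng call against naive cells (0.073 and 0.074). With a floor at log2 5 the Ifng differences were both 3.95 and missed the threshold (0.080 and 0.070). In Venus-low cells Ifng was at 7.01, 8.50 and 9.70, within the range of the Venus-high arrays except for its lowest.

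Of a list of 15 other genes tied to granules or to killer lymphocytes, 8 were tested. The genes of 7 further granzymes (Gzmd, Gzme, Gzmf, Gzmg, Gzmk, Gzmm and Gzmn) did not reach log2 5 on 2 arrays. None of the 8 was called in limma between the Tfh groups (2 at an unadjusted p under 0.05, beside 6.38% of all), where the 2 with the smallest p were Klrg1, an inhibitory receptor gene (-3.85 ± 1.35, adjusted p = 0.534 in limma), and Cst7, the gene of cystatin F (-1.33 ± 0.54, 0.704). Cst7 passed the threshold with the set term (0.023, with -1.21, -1.72 and -1.04 in sets 1, 2 and 3), as did Lamp1, the gene of a lysosomal membrane protein, which was higher (0.43, 0.039). Gzmc reached log2 5 only on the PD1-low arrays, at 5.28 and 5.24, against 2.26, 2.25 and 2.14 in Venus-high cells. It passed the filter through that group alone, so this is given as a description, with no test. Srgn, the gene of the granule proteoglycan serglycin, rose against naive cells by 1.16 ± 0.25 (0.027), a call lost without Venus-high array 2 or 3 or either naive array (0.076 to 0.165).

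All 10 genes of granule processing and release were tested, and none was called in limma between the Tfh groups (2 at an unadjusted p under 0.05, beside 6.38% of all). The set term called 3 of them, 2 higher and 1 lower, beside 8.98% of all probe sets (3.77% higher and 5.21% lower). Ctsl, described below, and Lyst, a gene of lysosome trafficking, were higher, Lyst by 1.35 (adjusted p = 0.014, with 1.12, 1.89 and 1.04 in sets 1, 2 and 3). Ctsc, the gene of the cathepsin that activates granzymes, was lower at -1.07 (0.028, with -0.74, -1.23 and -1.24). Stx11, the gene of a syntaxin needed for granule release, rose in Venus-high cells against PD1-low cells by 5.20 ± 0.65 (adjusted p = 0.002 in limma) and against naive cells by 8.01 ± 0.65 (1.79e-04). It also rose in PD1-intermediate against PD1-low cells by 4.01 ± 0.71 (0.030), a call lost without either PD1-intermediate array or PD1-low array 1 (0.132 to 0.272). Its levels were 13.64, 13.51 and 14.14 in Venus-high, 13.44, 12.87 and 13.97 in Venus-low, 12.74 and 12.39 in PD1-intermediate, 7.46 and 9.66 in PD1-low, and 6.28 and 5.22 in naive cells. Stx11 was thus high in the Venus-high cells, where Nkg7 and Gzmb were near log2 2. Ctsb rose by 1.64 ± 0.28 against PD1-low cells (0.010) and by 1.65 ± 0.28 against naive cells (0.008), calls lost without PD1-low array 1 (0.100) and naive array 2 (0.077). Ctsl, the cathepsin gene whose product Ctla2a inhibits, read 9.16, 11.05 and 12.09 in Venus-high against 5.74, 7.31 and 9.51 in Venus-low cells. Its difference of 3.25 ± 1.05 was opposite in sign to that of Ctla2a and missed the threshold (0.435), passing with the set term (0.012). Against naive cells Ctsl rose by 4.70 ± 1.17 (0.048), a call lost without Venus-high array 2 or 3 or either naive array (0.117 to 0.296).

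Of 12 partners and antagonists of Runx and T-box factors 9 were tested and none was called in limma between the Tfh groups (2 at an unadjusted p under 0.05, beside 6.38% of all). The set term called 2, both lower, beside 5.21% of all probe sets called lower and 8.98% called in either direction. Prdm1, the gene of the repressor BLIMP1, was at -2.43 (adjusted p = 0.048, with -1.10, -2.80 and -3.40 in sets 1, 2 and 3), and Lef1, of the TCF family, at -0.69 (0.013, with -0.58, -0.81 and -0.68). Bcl6, the Tfh repressor gene, rose in Venus-high against PD1-low cells by 2.50 ± 0.25 (adjusted p = 7.10e-04 in limma) and against naive cells by 2.76 ± 0.25 (3.40e-04). It also rose in PD1-intermediate against PD1-low cells by 1.66 ± 0.28 (0.024), a call lost without any 1 of these 4 arrays (0.068 to 0.277). Between the Tfh groups it differed by 0.64 ± 0.23 (0.542), reading 14.93, 14.79 and 14.75 in Venus-high and 14.45, 13.82 and 14.28 in Venus-low cells. Zeb2, the gene of a repressor that acts downstream of T-bet, rose against PD1-low cells by 4.26 ± 0.68 (0.007, at least 3.15-fold higher), a call lost without either PD1-low array (0.061 and 0.055). Runx1, the Runx3 relative, differed by 0.58 ± 0.24 between the Tfh groups (0.718) and rose by 1.10 ± 0.27 against naive cells (0.042). Gata3, the Th2 regulator gene, rose against naive cells by 1.25 ± 0.23 (0.011), and Lef1 fell by 1.99 ± 0.49 (0.045). The Gata3 call was lost without either naive array (0.075 and 0.078), the Runx1 call without Venus-high array 1 or 3 or either naive array (0.086 to 0.274), and the Lef1 call without Venus-high array 1 or 2 or either naive array (0.109 to 0.283).

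**Figure D4:**
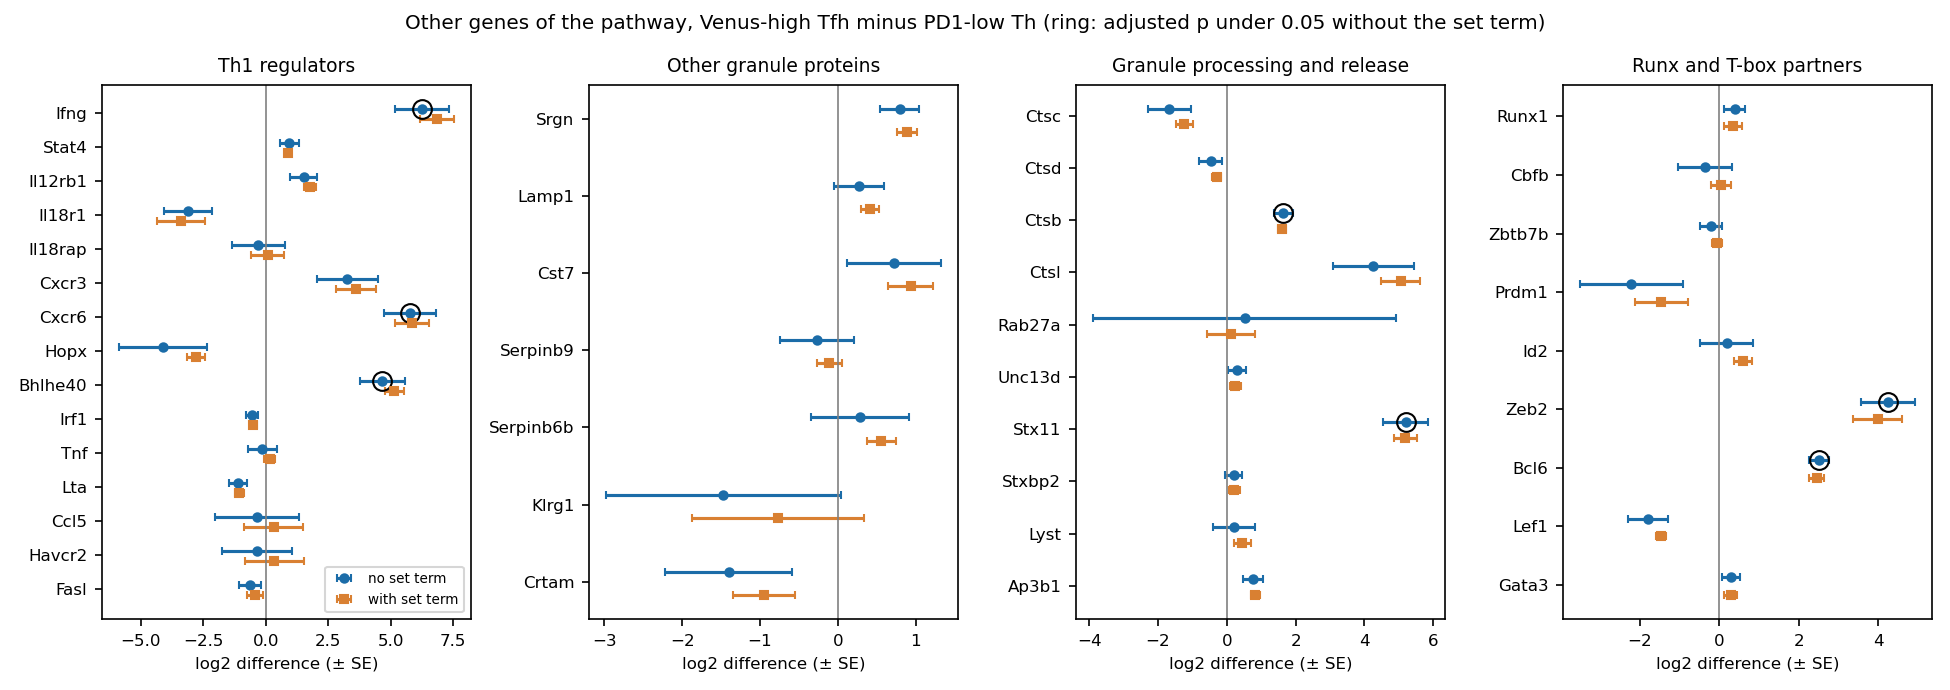
Log2 differences with standard errors (horizontal axis), Venus-high Tfh minus PD1-low Th, of the tested genes of the 4 pathway lists other than Gzmc, without and with the set term. Rings mark an adjusted p under 0.05 without the set term: Ifng, Cxcr6, Bhlhe40, Ctsb, Stx11, Zeb2 and Bcl6, all to the right of 0.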

How the data were processed

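Pooled total RNA (20 ng) of sorted CD4 T cells was amplified and hybridized to an Affymetrix mouse array, 1 array per pool, per the labels. The authors deposited log2 signals per probe set made with GCRMA, a background model from probe sequence with quantile normalization, per the submitters' processing notes, with its version not given in the sources used here. Which arrays were normalized together is not given in the sources used here, and scanner files were not used here, so precision rests on the number of arrays. The probe annotation of the array gave 1 symbol to 34958 of 45101 probe sets, several to 932 and none to 9211.

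Control probe sets (64) were left out, and tests covered the 22024 probe sets with at least 2 arrays at log2 5 or above. One limma fit (3.58.1, R 4.3.3) of 5 group means over all 12 arrays, with 7 residual degrees of freedom, gave 2-sided moderated tests of 6 comparisons with Benjamini-Hochberg adjustment over all tested probe sets and a threshold of 0.05. It was tested on simulated data. No covariate entered, and a term for the array set, found by clustering the arrays' quantiles into 3, was an alternative that left 5 degrees of freedom. Where 1 group lay below log2 5, the fold was taken against that floor. For genes outside the members, the probe set with the highest mean stood for its gene. Tfh arrays of the same replicate number deviated together from their group means (r = 0.95, 0.97 and 0.95). Each such pair also shared an array set, so paired samples and a shared set cannot be told apart. Venus-high array 2 deviated with PD1-low array 1 of the same set (r = 0.92). Its r was -0.92 with PD1-low array 2, of the same number but another set. In a group of 2 arrays the deviations are opposite, so this r follows from the other.

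All member probe sets were named whatever their values. In each list up to 4 genes past the threshold with the largest difference were named, or the 2 with the smallest p, and for 6 members the 5 genes with the highest Pearson r. The members and lists were chosen with earlier results of these data known. Other alternatives changed the filter, floor, normalization, probe set per gene, variance model, arrays fitted and replicate block, left out each array or displaced probe sets. Promoters are RefSeq sequences of GRCm38.p6, in which 9 of 10 members matched. Alignment used Biopython 1.88, and plots were made in Python 3.11.15 (matplotlib 3.10.9).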

Additional observations from a re-analysis of the deposited data

How the results depend on the processing

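The count of member probe sets called in limma moved with several settings. With the set term the share of all probe sets called rose too, from 0.418% to 8.98% between the Tfh groups. For PD1-intermediate against PD1-low cells it rose from 1.99% to 7.24%. Shares under the other settings are not given here, so the counts below are not a result about the members alone. For Venus-high against Venus-low Tfh cells it was 4 with the set term, with quantile normalization and without displaced probe sets, and 0 when only the groups compared were fitted or set 2 was left out, against 2 as reported. For PD1-intermediate against PD1-low cells it was 3 with the set term, 2 with quantile normalization, 1 probe set per gene, the replicate block or displaced probe sets left out, and 0 with only the groups compared, against 1. For Venus-high against PD1-low cells it was 3 with only the groups compared and 3 without set 2, against 6. Leaving out 1 array at a time gave 1 to 2 calls between the Tfh groups, 1 to 1 for PD1-intermediate against PD1-low, 3 to 5 for Venus-high against PD1-low (3 without PD1-low array 2), 3 to 4 for Venus-high against naive, and 0 elsewhere. Why the counts moved was not tested. The settings with only the groups compared and without set 2 also fitted fewer arrays. The replicate block on the 6 Tfh arrays called 3 members, adding Nkg7 (adjusted p = 0.047), and changed no other Tfh call. The crossed pairing of PD1-low and naive numbers, tried because same-numbered arrays deviated oppositely (r = -0.88), called 0. With 2 arrays in each of these groups, every pairing has an r of that size, apart from its sign. The replicate block over all 12 arrays brought Ctsw (0.010) and both Eomes probe sets (0.033 and 0.049) past the threshold in a comparison with Venus-high cells, and Ctsw in PD1-intermediate against PD1-low cells (0.024). The Ctsw difference between the Tfh groups, -0.80 log2 units and not called, changed sign to 0.044 log2 units without set 2. The calls of Runx3, Prf1 1451862_a_at and Ctla2a against PD1-low cells, and of Runx3, Prf1 1451862_a_at and Gzma against naive cells, held under every alternative run. The block on Tfh arrays, the crossed pairing and the omission of displaced probe sets were chosen after seeing the data. When only the groups compared were fitted, the calls of Ifng, Cxcr6, Bhlhe40, Ctsb, Stx11 (0.084) and Bcl6 (0.063) against PD1-low cells were lost and that of Zeb2 held. The same setting ended the calls of Ifng, Srgn, Ctsb, Ctsl, Runx1, Gata3 and Lef1 against naive cells, and of Stx11 and Bcl6 in PD1-intermediate against PD1-low cells. Signals under log2 5 have no order.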
